A study of Mus musculus with 6 samples.

Results

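The 8 genes described here are the 3 Tweety genes of the mouse (Ttyh1, Ttyh2 and Ttyh3) and the 5 genes of the Lrrc8 family (Lrrc8a to Lrrc8e). They were taken by symbol from 35857 genes measured in the cerebral cortex. They were selected on the difference between control and knockout TPM in these same libraries, which was known when the families were proposed, so that difference is given below as a description and nothing is concluded from where the members fall in the fit. All 8 genes had a row, 7 averaged 1 TPM or more and entered the fit across 14994 genes, and Lrrc8e did not. TPM is an abundance scaled to transcript length and to the library total, so levels of different genes can be set side by side.

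The libraries held polyadenylated RNA, read on the Ion Proton, from cortices taken at postnatal day 7 from C57BL/6 mice. Of the 6 brains, 3 were controls with the genotype label wild type, and 3 were labelled Qk-/-. Quaking, the product of Qk, binds RNA in glia and neural progenitors, and the series is titled as a study of quaking in the switch from neurogenesis to gliogenesis. The Qk allele, and whether it was removed from all cells or some, is not given in the sources used here.

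Cells that take up water swell, and they return to their volume by letting chloride and small organic osmolytes leave. The main route is the volume-regulated anion channel, a hexamer of LRRC8 proteins in which LRRC8A is the obligatory subunit and LRRC8B to LRRC8E are partners that set what passes. Tweety proteins are membrane proteins of the nervous system first described as chloride channels and later reported to carry swelling-activated currents in astrocytes, although their solved structures show no clear ion pore. TTYH1 is abundant in astrocytes and neural stem cells, where it has been linked to Notch signalling.

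Quaking is known to bind RNA at the letters ACUAAC or ACUAAU, and the annotated 3' untranslated regions (UTRs) of the members were searched for them, written as ACTAAC and ACTAAT on the transcript strand. In the longest annotated 3' UTR of Ttyh1, transcript Ttyh1-206 with 2880 bases, there were 4 matches. They are shown because Ttyh1 is the member whose knockout libraries all lay under its control libraries. Capitals mark the match, and each window is on the plus strand of GRCm38 in the order chr7:4133883-4133912, chr7:4133912-4133941, chr7:4134179-4134208 and chr7:4135446-4135475.
Ttyh1 match 1: ggagaaggccccACTAACctgaccttgact
Ttyh1 match 2: tgggctctgaccACTAACactgctggctat
Ttyh1 match 3: tcaacctatggcACTAACttggaagagggc
Ttyh1 match 4: gctggagacaaaACTAATctgccacagtgg

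Of 917 other tested genes whose longest 3' UTR was within 10% of that length, 59.9% held at least 1 match and 2.62% held 4 or more. The matches depend on how the end of Ttyh1 is spliced. Transcript Ttyh1-203 has a 3' UTR of 1034 bases that skips all 4. Transcript Ttyh1-217 keeps the first 3 matches in its 3' UTR. Transcript Ttyh1-202 ends in other codons, has match 1 in its coding part and matches 2 and 3 in its 3' UTR, and lacks match 4. The deposited value sums the transcripts of a gene, so which ending the cortex used is not measured here, and a match is a description of letters and not a shown binding site.

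The other members held fewer matches in their longest 3' UTR. Lrrc8b held 3 (18.8% of 613 genes of similar length held as many), Ttyh3 and Lrrc8c held 2 each (26.9% of 877 and 41.3% of 530), and Ttyh2 held 1 (42.0% of 1098). No match was in the longest 3' UTR of Lrrc8a, Lrrc8d or Lrrc8e. The 2 matches of Ttyh3 start 7 bases apart, and the first of them is shown for contrast with Ttyh1, on the minus strand at chr5:140622450-140622479, with the second in lower case beside it.
Ttyh3 match 1: ccccccgctgggACTAACcactaacctcac

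The libraries were alike in their breadth. Between 18971 and 19710 genes per library were above 0 TPM, and the correlation of log2(TPM + 1) across genes was 0.978 to 0.982 within groups and 0.977 to 0.980 between them. Genes are not independent replicates. Qk was at 36.5, 43.2 and 41.3 TPM in the control libraries and at 14.6, 15.2 and 15.4 TPM in the knockout libraries, so the targeted transcript was lower in every library labelled Qk-/-. TPM keep no read depth, so no counting interval can be given for any value below. With 1 library per brain, a p-value speaks of the spread among 3 brains a group.

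In control cortex Ttyh1 and Ttyh3 were the abundant members and the Lrrc8 genes lay well under them. Ttyh1 had a mean of 349.7 ± 13.6 TPM (SD, n = 3), above 97.1% of the tested genes. Ttyh3 had 295 ± 22.6 TPM, above 96.5%. Ttyh2 was far lower at 15.5 ± 1.93 TPM, near the middle of the tested genes (above 45.8%).

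Among the channel subunits, Lrrc8b was the most abundant transcript at 70.3 ± 2.75 TPM (SD, n = 3). Lrrc8d, whose protein lets larger organic osmolytes and taurine through the channel, followed with 46.2 ± 2.08 TPM. The obligatory subunit gene Lrrc8a came next with 30.7 ± 2.56 TPM, and Lrrc8c had 8.41 ± 1.41 TPM. Lrrc8e was listed at 0 in all 6 libraries, as were 35.3% of all genes in the files. Ordered by control mean, each member with a value above 0 exceeded the next by 1.19-fold (Ttyh1 over Ttyh3) to 4.19-fold (Ttyh3 over Lrrc8b), and the libraries of neighbouring members did not overlap.

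**Figure D1:**
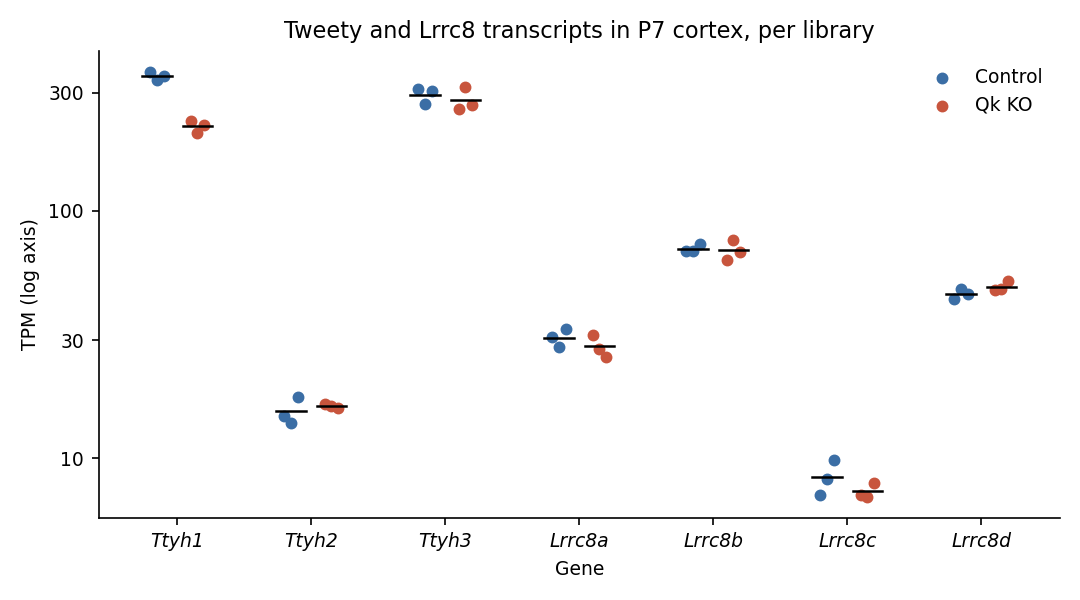
TPM of the 7 members with a value above 0, on a log axis, in 3 control (blue) and 3 Qk KO (red) libraries; each point is a library and each black line a group mean. Ttyh1 in the knockout libraries, at 206 to 231 TPM, lies under all its control libraries, at 336 to 363 TPM, while the 2 groups of points overlap for the other members.

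Ttyh1 was the one member whose groups stood apart. Control replicates 1, 2 and 3 gave 363, 336 and 349 TPM of Ttyh1, and knockout replicates 1, 2 and 3 gave 231, 206 and 221 TPM. Every knockout library was below every control library. The knockout mean, 219 ± 12.6 TPM (SD, n = 3), came to 0.628 of that in control cortex, and log2(TPM + 1) was lower there by a difference, knockout less control, of −0.67 with a standard error of 0.0713. Of the 14994 genes tested, 211 had a lower log2 difference than Ttyh1. In these bulk samples, fewer cells of a type and less RNA per cell cannot be told apart.

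Of the 7 members in the fit, 1, Ttyh1, was past an adjusted p of 0.05 (limma), against 0.387% of all genes tested. Ttyh1 was not past it in a refit with no trend in the prior variance. The same member was the only 1 of the 7 whose groups did not overlap, against 14.2% of all genes tested. The families were proposed on this contrast, so nothing is read from either count. The median log2 difference of the 7 was −0.07, beside −0.03 over all genes tested.

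Ttyh3 and Ttyh2 did not share the pattern of Ttyh1. Ttyh3 was at 311, 269 and 304 TPM in the control libraries and at 258, 316 and 268 TPM in the knockout libraries. Its highest and its lowest library were both knockouts, and its log2 difference was −0.07 with a standard error of 0.0954. Ttyh2 was at 14.9, 14.0 and 17.7 TPM in the control libraries and at 16.6, 16.2 and 15.9 TPM in the knockout libraries. All 3 knockout libraries fell inside the control range, with a log2 difference of 0.07 and a standard error of 0.111.

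The shares within the Tweety genes follow by arithmetic from the Ttyh1 difference. The families were proposed on that contrast, so the shares are a description and nothing is concluded from them. Summed, the Tweety genes came to 690, 619 and 671 TPM in the control libraries and to 505, 538 and 505 TPM in the knockout libraries. Ttyh1 made up 52.7%, 54.3% and 52.1% of that sum in the control libraries and 45.7%, 38.3% and 43.8% in the knockout libraries. Ttyh3 made up 43.4% to 45.3% in control and 51.0% to 58.7% in knockout cortex. Ttyh1 was thus the leading Tweety transcript in all 3 control libraries and Ttyh3 in all 3 knockout libraries, with a ratio of Ttyh1 to Ttyh3 of 1.19 ± 0.0537 in control and 0.792 ± 0.125 in knockout cortex (SD, n = 3).

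**Figure D2:**
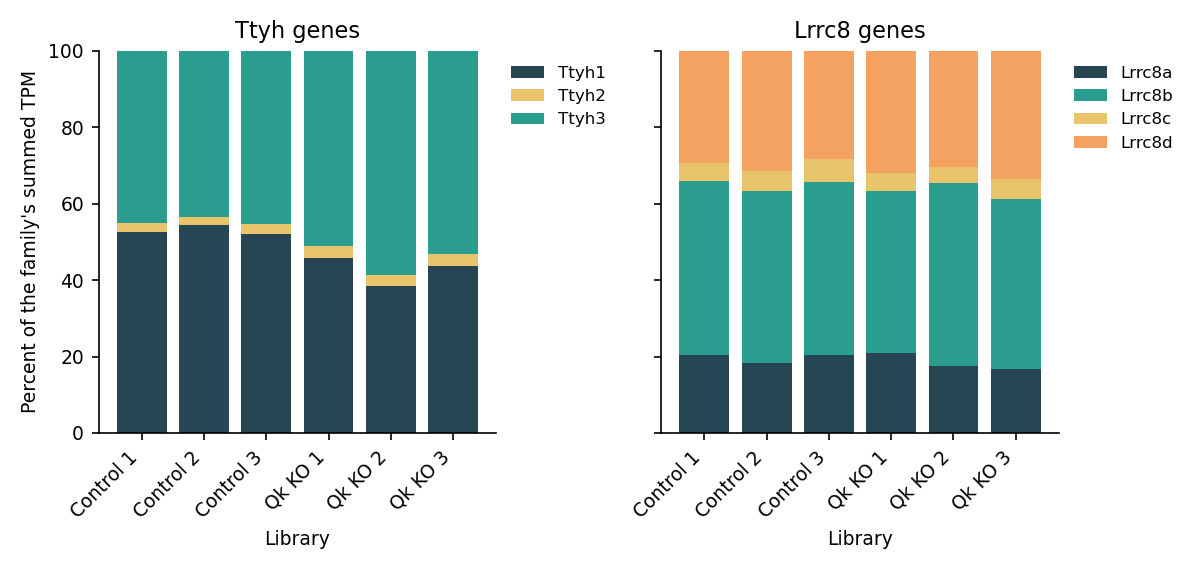
Share of each gene in the summed TPM of its family, in percent, for each library; Tweety genes on the left and Lrrc8 genes on the right, with Lrrc8e listed at 0 and not drawn. The Ttyh1 share is 52.1% to 54.3% in control and 38.3% to 45.7% in knockout libraries, while the Lrrc8b share is 42.2% to 47.9% over all 6.

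Each of the 4 Lrrc8 genes with a value above 0 overlapped between the groups. Lrrc8a, the gene of the obligatory subunit, was at 30.8, 28.2 and 33.3 TPM in the control libraries and at 31.6, 27.8 and 25.7 TPM in the knockout libraries. Its knockout mean was 28.3 ± 2.96 TPM (SD, n = 3), a log2 difference of −0.11 with a standard error of 0.105. The 2 lowest libraries were knockouts, and knockout replicate 1 was above 2 of the controls. Lrrc8a shares 66.2% of its annotated exonic bases with Gm28035, an overlapping gene model on the same strand. Gm28035 matched no row among the measured genes, so the value of Lrrc8a may hold reads of either.

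Lrrc8b, the most abundant partner subunit, was at 68.5, 69.0 and 73.5 TPM in control and at 63.4, 76.3 and 68.4 TPM in knockout libraries. The knockout libraries lay on both sides of the controls, with a log2 difference of −0.02 and a standard error of 0.0864. Lrrc8d was at 44.2, 48.4 and 46.1 TPM in control and at 48.0, 48.3 and 51.8 TPM in knockout libraries. It was the Lrrc8 gene with a higher knockout mean, 49.4 ± 2.15 TPM (SD, n = 3), although control replicate 2 was above 2 of the knockouts and the log2 difference was 0.09 with a standard error of 0.0777.

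Lrrc8c, a partner subunit of low level here, was at 7.09, 8.24 and 9.89 TPM in control and at 7.13, 7.01 and 7.96 TPM in knockout libraries. Its knockout libraries lay between just under the lowest and just under the middle control library, with a log2 difference of −0.16 and a standard error of 0.145, the widest error of the 7 members. The summed Lrrc8 genes came to 156 ± 6.29 TPM in the controls and 154 ± 4.70 TPM in the knockouts (SD, n = 3). Within that sum Lrrc8a took 18.3% to 20.5% in control and 16.7% to 21.03% in knockout libraries, and Lrrc8d 28.3% to 31.5% and 30.3% to 33.7%.

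By position, 3 of the Lrrc8 genes are neighbours. Lrrc8b (GRCm38 chromosome 5, 105415775 to 105490074), Lrrc8c (105519388 to 105613018) and Lrrc8d (105699969 to 105832436) follow each other on the plus strand, with gaps of 29.3 and 87.0 kb. Their control levels nevertheless ran from 8.41 TPM for Lrrc8c to 70.3 TPM for Lrrc8b. Lrrc8a is on chromosome 2 (30237715 to 30263790, plus strand), Lrrc8e on chromosome 8 (4226827 to 4237470, plus strand), Ttyh3 on chromosome 5 (140620578 to 140649031, minus strand) and Ttyh2 on chromosome 11 (114675431 to 114720977, plus strand).

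Ttyh1 is on the plus strand of chromosome 7, from 4119408 to 4136708, and has up to 14 exons. Within 200 kb of it, 5 other genes were tested, and 0 passed an adjusted p of 0.05 in limma, with 0 of them at an unadjusted p under 0.05. Their log2 differences ran from −0.38 to 0.37. Leng8, which starts just past the end of Ttyh1, had 79.8 TPM in control cortex and 81.1 TPM in the knockout. The antisense gene 9430041J12Rik covers 2.82% of the exonic bases of Ttyh1 and had a mean of 1.18 TPM. Whether reads were counted by strand is not given in the sources used here.

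Genes that work beside these channels were followed in 3 lists, read from the same fit. These lists and the marker lists below were chosen with earlier results of these data known. Their counts and p-values are therefore given as a description. Water and osmolyte handling held the one call: Mlc1, a membrane protein of astrocyte endfeet that modulates volume-regulated chloride currents and is mutated in a leukodystrophy with brain swelling, fell. It was at 219, 184 and 186 TPM in control and at 94.8, 89.5 and 85.2 TPM in knockout libraries, a log2 difference of −1.11 (standard error 0.0877; limma, adjusted p = 0.00153). This was 1 lower and 0 higher of 17 tested genes, beside 0.287% lower and 0.1% higher over all genes. In limma 4 of the 17 were at an unadjusted p under 0.05, beside 1307 of all 14994 genes tested. The median log2 difference was −0.12.

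Other members of that list lay closer to 0. Akr1b3, the aldose reductase that makes the osmolyte sorbitol, was at 79.2 ± 12.6 and 80.8 ± 11.8 TPM in control and knockout cortex (SD, n = 3). Dag1, the dystroglycan gene that anchors endfeet to the basement membrane, was at 81.4 ± 2.25 and 71.6 ± 1.16 TPM, with groups that did not overlap and an adjusted p of 0.472 in limma.

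No chloride channel or cotransporter passed. Of 20 tested chloride channel genes, limma called 0 (0 at an unadjusted p under 0.05), with a median log2 difference of −0.07. The most abundant were the endosomal chloride-proton exchangers Clcn4 (167 ± 4.98 and 176 ± 4.31 TPM), Clcn3 (63.5 ± 3.53 and 60.7 ± 4.66 TPM) and Clcn6 (45.5 ± 4.17 and 43.1 ± 1.60 TPM; control and knockout, SD, n = 3). Of 15 tested cation-chloride cotransporters and their kinases, limma called 0 (0 at an unadjusted p under 0.05), with a median of −0.03. Slc12a5, the neuronal potassium-chloride cotransporter KCC2, was at 149 ± 4.67 and 141 ± 5.64 TPM. Cab39, a scaffold of the kinases that act on these transporters, was at 83.1 ± 5.35 and 79.6 ± 8.08 TPM, and the chloride-sensing kinase Wnk2 at 44.98 ± 3.39 and 43.8 ± 2.44 TPM (SD, n = 3).

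**Figure D3:**
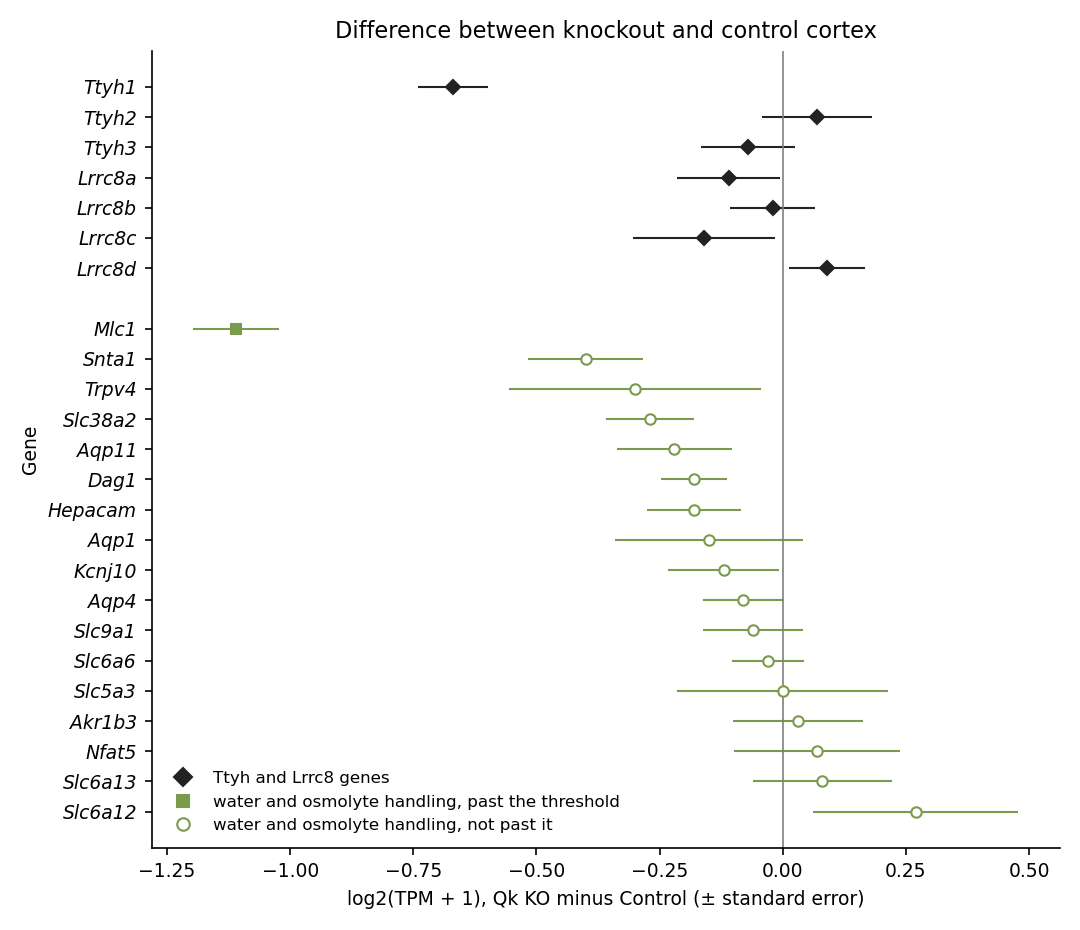
Difference in log2(TPM + 1), Qk KO minus Control, with its standard error, for the 7 members in the fit (black diamonds, with no call marked) and the 17 tested genes of water and osmolyte handling (green); the green filled square is past an adjusted p of 0.05 and the green open circles are not. Ttyh1 at −0.67 and Mlc1 at −1.11 lie to the left, and the other members lie between −0.16 and 0.09.

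Most of the astrocyte markers were lower in the knockout cortex, and 15 had a log2 difference under 0. In 14 every knockout library was under every control library, and in 1 every knockout library was above. Over all genes tested, 14.2% had groups apart in either direction. Limma called 0.287% of all genes tested lower and 0.1% higher, and their median log2 difference was −0.03. Of 16 tested astrocyte markers, 7 (Mlc1 among them) were called lower and 0 higher in limma, with a median log2 difference of −0.64, and 9 were not called. The count was 4 without control replicate 2 or 3 or knockout replicate 1 or 2, and 5 without control replicate 1 or knockout replicate 3. Their summed level was 1706 to 1786 TPM in control and 1129 to 1270.0 TPM in knockout libraries, and no marker was listed at 0. Slc1a3, the glutamate transporter GLAST, went from 265 ± 11.3 to 112 ± 4.86 TPM (SD, n = 3; limma, adjusted p = 0.000494). Aldh1l1, a folate enzyme used as a general astrocyte marker, stood the other way at 55.5 ± 7.22 and 77.0 ± 4.93 TPM, with groups that did not overlap (limma, adjusted p = 0.139), and the water channel gene Aqp4 was at 49.1 ± 3.29 and 46.4 ± 1.86 TPM (SD, n = 3; limma, adjusted p = 0.847). Ttyh1 was 1.31, 1.32 and 1.33 times the level of Slc1a3 in the control libraries and 2.004, 1.93 and 1.92 times in the knockout libraries, a ratio chosen after the values were seen. The part of astrocyte number or state in the level of Ttyh1 was not tested.

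Markers of other cells were read the same way, beside 0.287% called lower, 0.1% called higher and a median log2 difference of −0.03 over all genes tested. Myelinating oligodendrocyte markers summed to 293 to 303 TPM in control and 170 to 199 TPM in knockout libraries. Of 11 tested, 9 had a log2 difference under 0, and the median was −0.66. Every knockout library was under every control library in 5 of the 11 and above in 0. Of the 11, 3 were called lower, among them Mbp, the myelin basic protein gene (93.5 ± 1.5 to 51.4 ± 1.85 TPM, SD, n = 3). That count was 1 without control replicate 2. Radial glia markers, which share Slc1a3 with the astrocyte list, summed to 1526 to 1775 and 1561 to 1733 TPM. Of that sum, Fabp7 alone came to 900 ± 101 and 1046 ± 110 TPM. Among the 12, 2 were called lower and 1 higher. The lower count was 1 without control replicate 2 or 3. The higher one was Vim (157 ± 6.17 to 239 ± 21.6 TPM). Its call was lost without either of these or without knockout replicate 1 or 2. Among precursor markers, 9 of 11 had a log2 difference under 0, with a median of −0.2. Every knockout library was under every control library in 6 of the 11 and above every control library in 2. The 11 summed to 737 to 808 and 727 to 780 TPM, with 1 called lower and 1 called higher. The lower one was Gpr17, a receptor of maturing precursors (37.5 ± 4.78 to 12.9 ± 3.24 TPM). It lost its call when control replicate 3 was left out (limma, adjusted p = 0.0547). The higher one was Olig2 (61.8 ± 4.64 to 97.3 ± 6.01 TPM). Its call was lost without control replicate 2 or knockout replicate 2 or 3.

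Neuron markers summed to 7916 to 8549.9 TPM in control and 8508 to 8939 TPM in knockout libraries. Of the 16, limma called 0, and 2 were at an unadjusted p under 0.05, beside 1307 of all 14994 genes tested. Stmn2, a stathmin of growing axons, was at 2746 ± 104 and 2859.7 ± 187 TPM. For microglia markers the sums were 379 to 406 and 415 to 455 TPM, with 0 of 12 called (4 at an unadjusted p under 0.05). The median log2 difference was 0.06, and 4 of the 12 differences were negative. Every knockout library was above every control library in 2, among them the complement gene C1qb (75.0 ± 8.26 and 89.1 ± 4.07 TPM). The reverse held for 1, P2ry12 (12.1 ± 1.06 and 9.29 ± 0.321 TPM). Mural and meningeal markers summed to 639 to 734 and 525 to 602 TPM, with 0 of 14 called (3 at an unadjusted p under 0.05) and Igf2 at 208 ± 27.9 and 162 ± 19.1 TPM. Endothelial markers (608 to 728 and 557 to 615 TPM) had 1 called lower of 12, Mfsd2a, a lipid transporter. Those of choroid plexus and ependyma (804 to 1601 and 742 to 1098 TPM) had 1 called higher of 12, Foxj1, a regulator of motile cilia. Over all genes tested, limma called 0.287% lower and 0.1% higher. Neither call held when any 1 library was left out, with adjusted p of up to 0.169 for Mfsd2a and 0.159 for Foxj1 in limma. Foxj1 went against most of its list. Of the 12 choroid plexus and ependymal markers, 10 had a log2 difference under 0, and the median was −0.18. Ttr alone was at 1210 ± 423 and 783 ± 184 TPM, so the choroid plexus and ependymal sums rest largely on 1 gene. The part of these cells in the level of any member was not tested.

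Ttyh1 had the largest absolute log2 difference of the members, so the genes with the most similar profile were sought for it. Likeness was the root mean square distance between log2(TPM + 1) values over the 6 libraries, each gene centred on its own mean, and 14993 genes were compared. The nearest 5 were Stxbp3, a partner of syntaxins in vesicle fusion (distance 0.0484), Twistnb, a subunit of RNA polymerase I (0.0689), Fgfr3, an FGF receptor of astrocytes (0.0730), Cmtm6 (0.0759) and Chst3, a chondroitin sulfotransferase (0.0768), against a median of 0.358 over all genes compared. The distance rests mostly on the step between the groups, which the choice of Ttyh1 fixed. Their levels were far below that of Ttyh1. Fgfr3 was the most abundant of them, at 39.0, 38.9 and 44.6 TPM in control and 26.7, 23.2 and 26.0 TPM in knockout libraries. It was also the only 1 of the 5 past the threshold (limma, adjusted p = 0.0244), a call that held in 0 of 6 refits with 1 library fewer (adjusted p up to 0.116).

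**Figure D4:**
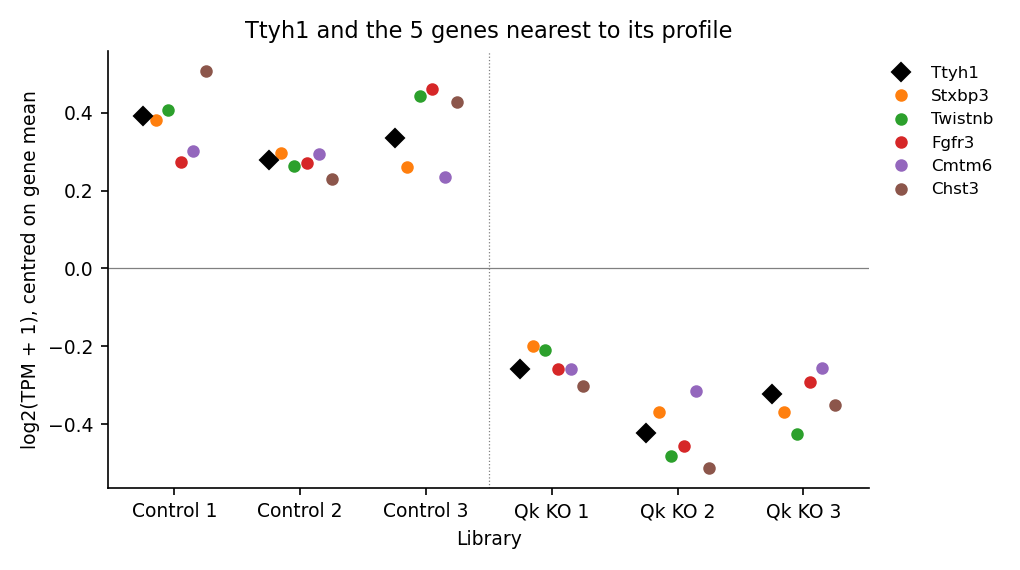
log2(TPM + 1) centred on each gene's mean over the 6 libraries, for Ttyh1 (black diamonds) and the 5 genes nearest to its profile (coloured points); the dotted line parts control from Qk KO libraries. All 6 genes lie above their mean in the 3 control libraries and below it in the 3 knockout libraries.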

How the data were processed

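RNA was column-purified and polyA-selected, and libraries were made with the Ion Total RNA-Seq Kit, per the labels' protocols. The submitters' processing notes name STAR 2.4.1d, RSEM 1.3.0 and the builds mm10 and GRCm38.p4; trimming and gene models were not stated there. The deposited files hold 1 TPM value per gene and library, made by the authors; they sum to 1000000 in each library, so a rise of some genes lowers others. Groups and replicate numbers came from the titles.

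The 14994 genes averaging 1 TPM or more entered a limma 3.58.1 fit of log2(TPM + 1) in R 4.3.3, with group as its term, a prior variance that follows the mean, and Benjamini-Hochberg adjustment over all genes at 0.05. The fit was tested on simulated data. Coordinates and 3' UTRs came from GENCODE vM21 (GRCm38), which matched 97.27% of tested genes by Entrez number or symbol; of each gene the basic protein-coding transcript with the longest 3' UTR was searched.

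The members, lists and naming rules were chosen with earlier results of these data known. Named genes were the members, Qk and called genes of the 3 context lists (filled to 3 by mean TPM). Also named were 1 gene per marker list and the 5 nearest to Ttyh1. Leng8, 9430041J12Rik, Aldh1l1, Aqp4, Olig2, Vim, Fabp7, P2ry12 and Ttr were named after their values were seen. Other pseudocounts, filters, scalings and priors, a replicate block and leaving out each library were tried.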

Additional observations from a re-analysis of the deposited data

How the results depend on the processing

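The log2 differences of the 7 members stayed within 1 SD of the reported values under all 15 other settings. Ttyh1 ran from −0.71 to −0.63, and it lost its call with no trend. These are refits of the libraries on which the members were selected, so the range describes the settings and supports nothing about Ttyh1. Lrrc8b, near 0, changed sign in 4 of the 15 (−0.09 to 0.04), and the other 5 members kept their sign. The calls in the 3 context lists did not change in number. The number of genes called over the whole table, 58, was 37 with no filter on low values, 28 with no trend and 38 with the replicate block; leaving out 1 library gave 27 to 59 (27 without control replicate 2, 28 without knockout replicate 2, 31 without control replicate 3, 34 without knockout replicate 3). The higher share of those calls was 8 of 38 with the replicate block, against 15 of 58. Same-numbered control and knockout libraries share only a number, with no pairing in the labels. Their deviations from the group means correlated at 0.035, 0.031 and 0.013, each the highest for its library. Control replicate 2 with knockout replicate 3 gave 0.01, so whether libraries were paired cannot be told from these values. With 3 libraries a group and no read depth, small differences of low members such as Lrrc8c were not detectable.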
